A study of Mus musculus with 32 samples.

Results

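The genes described here are the nectins and the apical polarity complex of the mouse neural tube. They are 10 genes fixed by name: Nectin1, Nectin2, Nectin3, Afdn, Tjp1, Pard3, Pard6b, Prkci, Prkcz and Crb2. All 10 were matched by Ensembl identifier, out of 48576 identifiers in the deposited files. RNA was measured in forebrain (Fb) and midbrain (Mb) tissue of embryos of a B6C3F1-derived background at E9.5, in 32 libraries. Each tissue had 6 WT, 4 TKO_Ex, 3 DKO_Ex and 3 DKO_CD libraries. WT embryos came from WT matings and mutants from matings of triple heterozygotes, so litter and genotype cannot be told apart. TKO_Ex embryos lack Cdh6, Cdh8 and Cdh11 and had exencephaly, an open cranial neural tube. DKO_Ex embryos are labelled as Cdh8 and Cdh11 double knockouts, and DKO_CD embryos as Cdh6 and Cdh8 double knockouts. The sample titles give no phenotype. Exencephaly (Ex) and cranial defect (CD) are group names of the methods, which call both DKO groups Cdh8/11. The alleles are small CRISPR/Cas9 deletions in the exon that holds the start codon. The study compared each mutant group with WT to ask which genes follow the loss of type II cadherins.

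Neuroepithelial cells are held together at their apical side by adherens junctions, built from cadherins and from nectins. Nectins are immunoglobulin-like adhesion molecules that bind across neighbouring cells, and their cytoplasmic tails attach to afadin, which links them to actin. Next to these junctions sit the Par complex, formed by Par3, Par6 and an atypical protein kinase C, and the Crumbs complex. Together they set the apical domain of the cell, and the neural plate needs both junctions and an apical actin belt to bend and close.

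The nectin tails are shown first, because they are the parts through which these 3 adhesion genes meet a further gene of the set, Afdn. The last 30 coding bases before the stop codon are given 5′ to 3′ for annotated transcripts (GENCODE M21, GRCm38), with the last 4 codons in capitals.
Nectin1-201, chr9:43803984-43804013, plus strand: tctttcatttccaagaaaGAGTGGTATGTG
Nectin2-201, chr7:19717518-19717547, minus strand: gacttttttgtgtcacggGCCATGTATGTG
Nectin2-202, chr7:19724484-19724513, minus strand: tccctcatctctcggcggGCAGTTTACGTG
Nectin3-202, chr16:46395099-46395128, minus strand: ctctacatcaacccacgaGAACATTATGTG
Nectin3-201, chr16:46448391-46448420, minus strand: tccgtaatttccaggaggGAGTGGTATGTC
All 5 runs end in a tyrosine codon followed by a valine codon. In the last 4 codons Nectin1-201 and Nectin3-201 share 11 of 12 bases, and Nectin1-201 and Nectin2-201 share 8 of 12. Over all 30 bases, Nectin1-201 shares 23 with Nectin3-201 and 12 with Nectin2-201. Of the coding transcripts with an annotated stop codon, 1 of 2 from Nectin1, 2 of 2 from Nectin2 and 5 of 7 from Nectin3 end this way. The deposited values are per gene, so levels of the transcripts that carry a tail and of those that do not are pooled below.

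Positions of genes are given below by the same annotation and build. The values are FPKM, fragments per kilobase of exon scaled to the mapped fragments of a library, so that levels can be compared between genes. No counts were used. The step between low values put the depth at 1.95 to 3.24 M fragments per library. Every TKO_Ex Mb library, at 1.95 to 2.33 M, lay below every WT Mb library, at 2.39 to 2.94 M. Every DKO_Ex Mb library, at 3.09 to 3.24 M, lay above every WT Mb library. They also lay above every DKO_CD Mb library, at 2.46 to 2.75 M. In 12 DKO files the heading of the value column names the other DKO group than the record that lists the file. The headings were followed, and following the records exchanges DKO_Ex and DKO_CD throughout. Cdh6 was at 2.04 to 3.997 FPKM in WT Fb and 1.04 to 3.55 in WT Mb. It was at 0.572 to 1.84 FPKM in Fb and 0.345 to 0.388 in Mb in 3 of the TKO_Ex replicates, but within the WT range in the library labelled TKO_Ex replicate 3, at 3.74 and 3.10 FPKM. In DKO_CD it was at 1.72 to 3.43 FPKM in Fb and 1.29 to 2.11 in Mb, and in DKO_Ex at 3.62 to 4.34 and 1.86 to 3.12. Cdh11 in TKO_Ex Fb was at 19.8 to 21.4 FPKM, within the WT range of 19.5 to 25.3, and Cdh8 at 0.911 to 3.15 against 0.840 to 1.96. In TKO_Ex Mb, Cdh11 was at 14.5 to 16.6 FPKM, below the WT range of 17.9 to 28.7. Cdh8 overlapped there, at 0.851 to 2.32 against 1.14 to 10.1. The levels of Cdh8 and Cdh11 therefore do not settle the genotype of a library. In the Mb, Cdh6 in both DKO groups lay within the WT range and above the 3 low TKO_Ex replicates. That holds whether the DKO files are grouped by heading or by record. A fall of Cdh6 like that in those replicates was thus not seen under the Cdh6 and Cdh8 label. The genotype of the DKO_CD libraries was not tested further. WT Mb replicate 5 had the lowest summed FPKM of 7 midbrain and isthmus markers of the WT Mb, 30.4 against a WT median of 149.6, and the highest of 7 forebrain markers, 67.2 against a median of 39.1. Of the forebrain markers, Otx1 was not lower in the Mb, at 22.2 to 52.2 FPKM in WT Mb and 23.1 to 33.5 in WT Fb. Each other forebrain marker was at 9.05 FPKM or below in WT Mb, so the WT Mb sums largely reflect Otx1. The tissue labels were met by their markers in the other libraries, with forebrain marker sums of 155 to 288 in Fb and 12.4 to 63.4 in Mb outside that library. No source used here ties a library to 1 embryo or a pool, so the p-values measure the spread between libraries only.

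All 10 genes were expressed in both tissues of every group, at 2.88 FPKM or more in all 32 libraries. In WT Fb, the order by median FPKM was Nectin2 (51.1), Afdn (46.7), Tjp1 (33.6), Nectin3 (25.6), Prkci (22.8), Pard3 (21.3), Crb2 (17.9), Nectin1 (10.5), Pard6b (9.05) and Prkcz (6.06). No neighbours in that order were separated, since the ranges over 6 libraries overlapped in each case. In WT Mb, the order was Afdn (42.6), Tjp1 (34.1), Nectin2 (29.9), Crb2 (22.7), Nectin3 (21.6), Pard3 (20.8), Prkci (20.6), Nectin1 (11.2), Pard6b (7.40) and Prkcz (3.24). There the ranges of the 4 lowest, from Prkci down to Prkcz, did not overlap with each other, whereas those of the 7 highest overlapped between neighbours. Nectin2 led the order in Fb but stood behind Afdn and Tjp1 in Mb, and Crb2 stood below Nectin3, Prkci and Pard3 in Fb but above them in Mb by median. Within single WT Mb libraries, Crb2 was above Nectin3 in only 2 of 6.

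**Figure D1:**
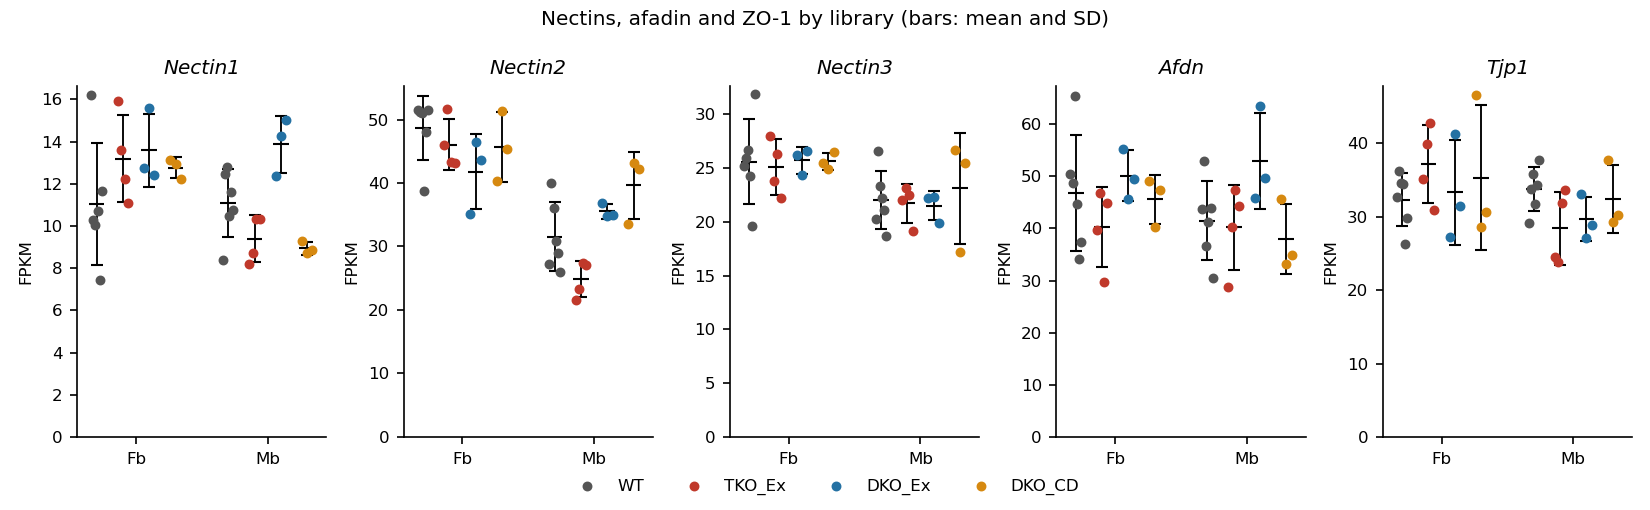
FPKM of Nectin1, Nectin2, Nectin3, Afdn and Tjp1 in each library, by tissue (Fb, Mb) and group (colours). Points are libraries and bars are the mean and SD of 6 WT, 4 TKO_Ex, 3 DKO_Ex and 3 DKO_CD libraries. Nectin2 lies at 38.7 to 51.5 in WT Fb and at 26.0 to 40.1 in WT Mb.

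**Figure D2:**
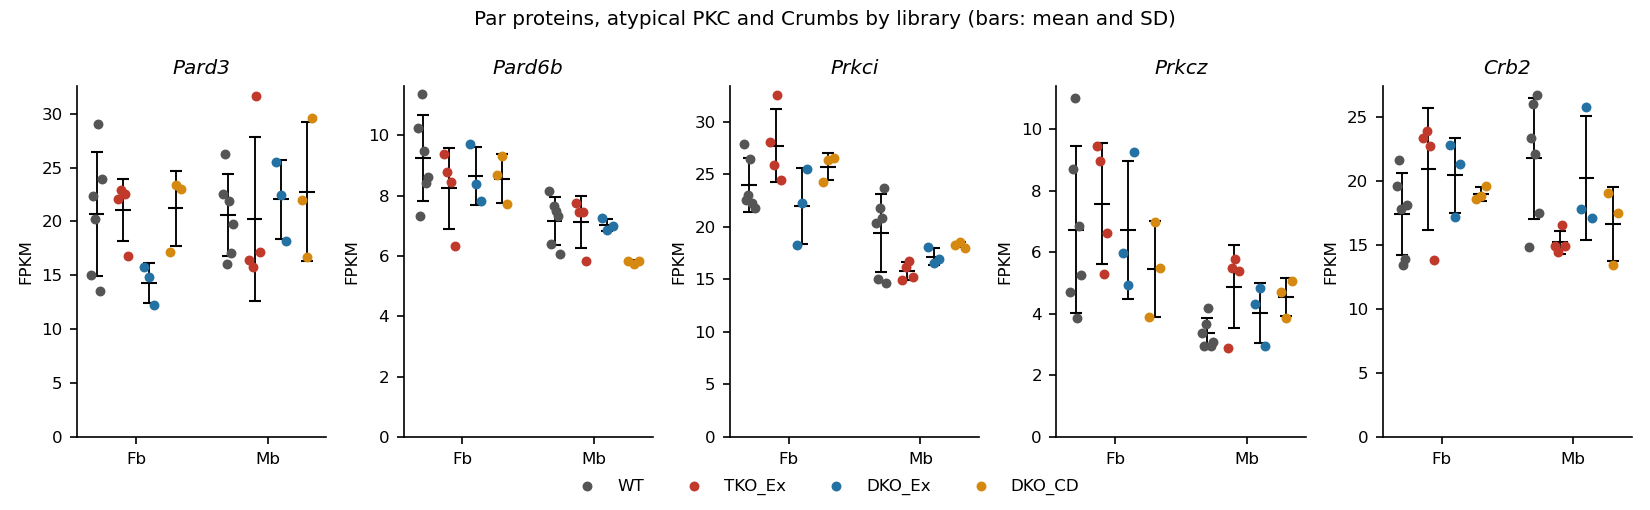
FPKM of Pard3, Pard6b, Prkci, Prkcz and Crb2 in each library, drawn in the same way. Prkcz lies at 3.87 to 11.003 in WT Fb and at 2.94 to 4.20 in WT Mb, and the 3 DKO_CD Mb libraries lie close together for Pard6b, at 5.75 to 5.85.

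Between the tissues of WT embryos, 2 of the 10 genes differed, and both were lower in the Mb. They were Nectin2, the most abundant nectin, and Prkcz, which encodes atypical protein kinase C zeta. Over all genes 8.26% of 13344 passed the same test (limma, adjusted p under 0.05), and 3.60% did so with a lower level in the Mb. Of the 10 genes, 6 had a log2 difference below 0 and their median was -0.18, while the median over all genes tested was -0.0033.

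Nectin2 (chr7:19716644-19750483, minus strand) was at 51.5, 51.2, 51.0, 38.7, 48.0 and 51.4 FPKM in WT Fb replicates 1 to 6. In WT Mb it was at 27.3, 40.1, 36.1, 30.9, 29.0 and 26.0 FPKM. The groups touched only through Fb replicate 4 and Mb replicate 2, and 5 of the 6 Mb libraries were below every Fb library. The means were 48.6 ± 5.04 FPKM in Fb and 31.6 ± 5.47 FPKM in Mb (SD, n = 6 each), a 1.54-fold difference of the means. On the log2(FPKM + 1) scale the difference was -0.62 ± 0.11 (SE), with a 95% interval of -0.86 to -0.37 (limma, adjusted p = 0.00317). It passed the test without each of the 12 libraries in turn, WT Mb replicate 5 included, with log2 differences of -0.69 to -0.57.

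The other 2 nectins did not pass the test between the tissues. Nectin1 (chr9:43743984-43807461, plus strand) was at 7.43 to 16.2 FPKM in WT Fb (median 10.5) and 8.37 to 12.8 FPKM in WT Mb (median 11.2). Its mean was 11.1 FPKM in both tissues, with an interval of the log2 difference of -0.31 to 0.36. Nectin3 (chr16:46387706-46498525, minus strand) was at 19.7 to 31.9 FPKM in WT Fb (median 25.6) and 18.7 to 26.6 FPKM in WT Mb (median 21.6), with an interval of -0.45 to 0.04. Nectin2 thus made up 57.1 ± 4.05% of the summed nectin FPKM in WT Fb and 48.6 ± 1.54% in WT Mb (SD, n = 6 each). Nectin3 made up 29.99 ± 2.98% and 34.2 ± 1.31%, and Nectin1 12.9 ± 2.69% and 17.2 ± 1.75%. The shares of Nectin2 did not overlap, at 52.5 to 63.9% in Fb and 46.8 to 50.7% in Mb.

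Prkcz (chr4:155260129-155361361, minus strand) was at 4.72, 8.72, 11.003, 3.87, 6.87 and 5.25 FPKM in WT Fb and at 3.38, 2.94, 3.67, 4.20, 2.96 and 3.09 FPKM in WT Mb. The Fb libraries spread nearly 3-fold while those of the Mb lay close together, and 5 of the 6 Mb libraries were below every Fb library. The means were 6.74 ± 2.71 and 3.37 ± 0.49 FPKM (SD, n = 6 each). The log2 difference was -0.76 ± 0.20 (SE), with an interval of -1.19 to -0.33 (limma, adjusted p = 0.0330). This call was close to the threshold. With the replicate number as a block it did not pass (limma, adjusted p = 0.0746). It was lost with no filter on low values (adjusted p = 0.0611), without WT Fb replicate 2 (adjusted p = 0.0771), 3 (0.0577) or 5 (0.0674), and without WT Mb replicate 2 (0.0692), 3 (0.0547), 5 (0.0691) or 6 (0.0654), with log2 differences of -0.78 to -0.62 in the 7 fits that leave out a library. Prkcz was also the gene with the fewest fragments of the set, an estimated mean of 73 per library in WT Fb and 37 in WT Mb. Counting alone gives a CV of 11.7% and 16.5% at those numbers, against an observed 40.2% and 14.6%.

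Prkci (chr3:30995747-31052959, plus strand), which encodes the other atypical kinase, iota, was at 21.8 to 27.9 FPKM in WT Fb (median 22.8) and 14.7 to 23.7 FPKM in WT Mb (median 20.6). Here too 5 of 6 Mb libraries were below every Fb library. Its log2 difference of -0.31 did not pass the test (limma, adjusted p = 0.171). Prkcz made up 21.8 ± 7.65% of the summed FPKM of both kinases in WT Fb and 15.1 ± 2.32% in WT Mb, and these shares overlapped.

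Pard6b (chr2:168081004-168101203, plus strand) encodes Par6 beta, the adaptor that holds the kinase to Par3 and Cdc42. It was at 7.32 to 11.4 FPKM in WT Fb (median 9.05) and 6.05 to 8.14 FPKM in WT Mb (median 7.40), with a log2 difference of -0.32 (limma, adjusted p = 0.113). Pard3 (chr8:127063893-127612286, plus strand), which encodes the Par3 scaffold, had close means, 20.7 ± 5.77 FPKM in Fb and 20.6 ± 3.79 in Mb. Crb2 (chr2:37776249-37799103, plus strand), a Crumbs protein of the early embryo, was the only gene of the set with a log2 difference above 0.1 towards the Mb. It was at 13.4 to 21.7 FPKM in WT Fb and 14.8 to 26.7 FPKM in WT Mb, and 4 of 6 Mb libraries were above every Fb library. Its log2 difference of 0.30 had an interval of -0.04 to 0.64 and did not pass the test. Afdn (chr17:13760539-13906150, plus strand), which encodes afadin, and Tjp1 (chr7:65296165-65527781, minus strand), which encodes the junctional scaffold ZO-1, did not pass it either. Afdn was at 34.1 to 65.5 FPKM in Fb and 30.5 to 52.9 in Mb, and Tjp1 at 26.4 to 36.2 and 29.2 to 37.7. Groups without any overlap made up 5.59% of all genes in this comparison and none of the 10.

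Markers of other cell types moved with the tissue difference. Of 9 surface ectoderm markers, 7 entered the test and all 7 were lower in WT Mb, among them Epcam (log2 difference -2.05) and Cdh1 (-1.50). Their summed level was 69.7 to 117 FPKM in WT Fb and 27.5 to 42.9 FPKM in WT Mb, and the defining marker Grhl3 was listed between 0 and 0.29 FPKM in WT Mb. Of 7 mesenchyme and neural crest markers found, 4 were lower and 1 was higher in the Mb, with sums of 139 to 176 FPKM in Fb and 66.4 to 111 FPKM in Mb. All 3 neuron markers found were higher in the Mb, with sums of 2.79 to 8.38 FPKM in Fb and 22.5 to 50.1 FPKM in Mb. Epithelia such as the surface ectoderm also carry nectins and the Par complex, and in bulk tissue a change in the number of cells and in RNA per cell cannot be told apart. The part of these cells in the 2 differences was not tested.

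Values of single libraries can be set beside those sums. In Fb, the surface ectoderm sum reached 255 FPKM in TKO_Ex replicate 4, 236 in DKO_CD replicate 2, 189 in TKO_Ex replicate 3, 187 in DKO_Ex replicate 2 and 118 in DKO_Ex replicate 1, above the highest WT value of 117. Nectin2 in the first 4 of these libraries was at 43.2, 51.4, 43.2 and 46.5 FPKM, within the WT Fb range, and in DKO_Ex replicate 1 it was at 35.1 FPKM, below that range. Prkcz was at 6.63, 6.999, 5.30, 4.94 and 5.98 FPKM in the 5 libraries, within its WT Fb range. In Mb, the 2 libraries with the highest sums, DKO_CD replicates 2 (82.8 FPKM) and 3 (62.6), also had the highest Nectin2 of the Mb, at 43.1 and 42.2 FPKM. DKO_CD Mb replicate 1, with a sum of 25.4 FPKM, had Nectin2 at 33.6. Mesenchyme and neural crest sums of the Mb were also highest in DKO_CD replicate 2 (163.2 FPKM), followed by replicate 1 (121.6).

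**Figure D3:**
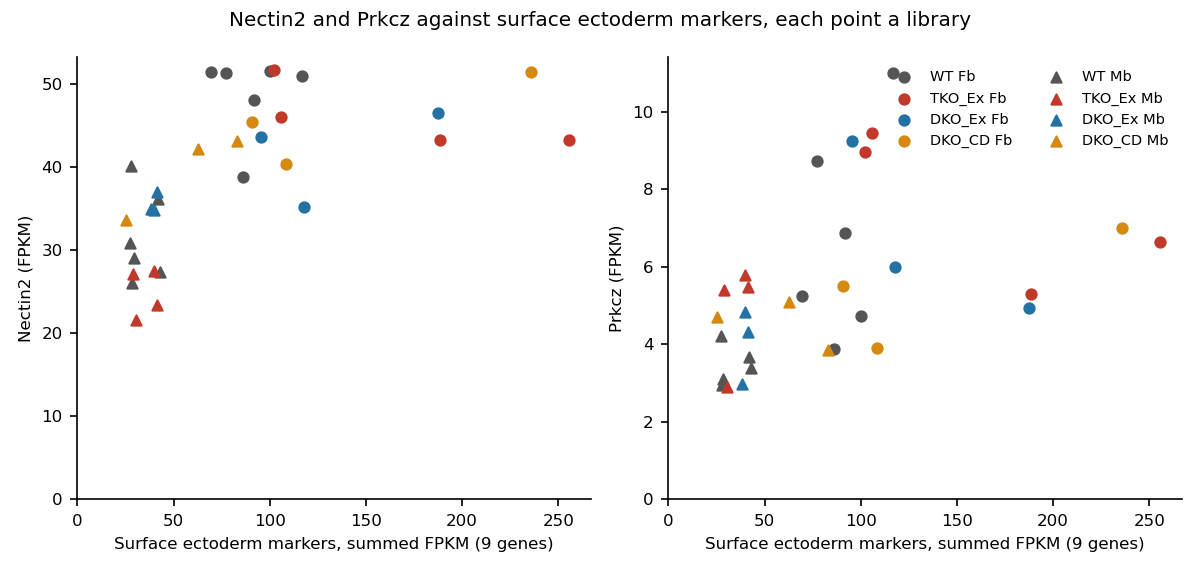
FPKM of Nectin2 (left) and Prkcz (right) against the summed FPKM of 9 surface ectoderm markers, for each of 32 libraries (circles Fb, triangles Mb, colours by group). The 4 Fb libraries with marker sums of 187 to 255 have Nectin2 at 43.2 to 51.4, and the Mb libraries lie to the left at sums of 25.4 to 82.8.

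Other genes of apical junctions and polarity were counted as a list of 36. Of these, 30 entered the WT tissue comparison, 1 was higher and 4 were lower in the Mb, and their median log2 difference was 0.0018. The 4 lower genes were Crb3, an epithelial Crumbs protein (log2 difference -1.53), Lmo7, an afadin-binding protein (-1.21), F11r, a tight junction adhesion molecule (-0.97), and Cgn, the tight junction protein cingulin (-0.82). The higher gene was Jam2, a relative of F11r (1.62), at 3.36 to 5.33 FPKM in Fb and 11.7 to 20.03 in Mb. Of 9 adherens junction genes, Cdh1 (E-cadherin), which is also among the surface ectoderm markers, was lower and Ctnna2, the neural alpha-catenin, was higher (log2 difference 1.002) in the Mb. Crb3, the relative of Crb2, was at 2.51 to 6.40 FPKM in Fb and 0 to 1.25 in Mb.

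None of the 10 genes passed the test against WT in any mutant group or tissue. This holds for all 6 comparisons (limma, adjusted p under 0.05), in which few genes passed at all. The share of all genes called was 0.0898% in TKO_Ex Mb, 0.0903% in DKO_Ex Mb, 0.0375% in DKO_CD Mb, 0.0603% in TKO_Ex Fb, 0.0759% in DKO_Ex Fb and 0.0378% in DKO_CD Fb. The 60 log2 differences of the members ran from -0.47 to 0.40. All 60 of their 95% intervals lay within 1 of 0 on the log2(FPKM + 1) scale, and 30 of the 60 lay within 0.5. The outermost bounds were -0.96 and 0.80. An unadjusted p under 0.05 was reached by 3 genes in TKO_Ex Mb, against 1120 of 13361 over all genes, and by 0 in the other 5 comparisons. The comparisons in a tissue share their WT libraries, so their directions are not independent.

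**Figure D4:**
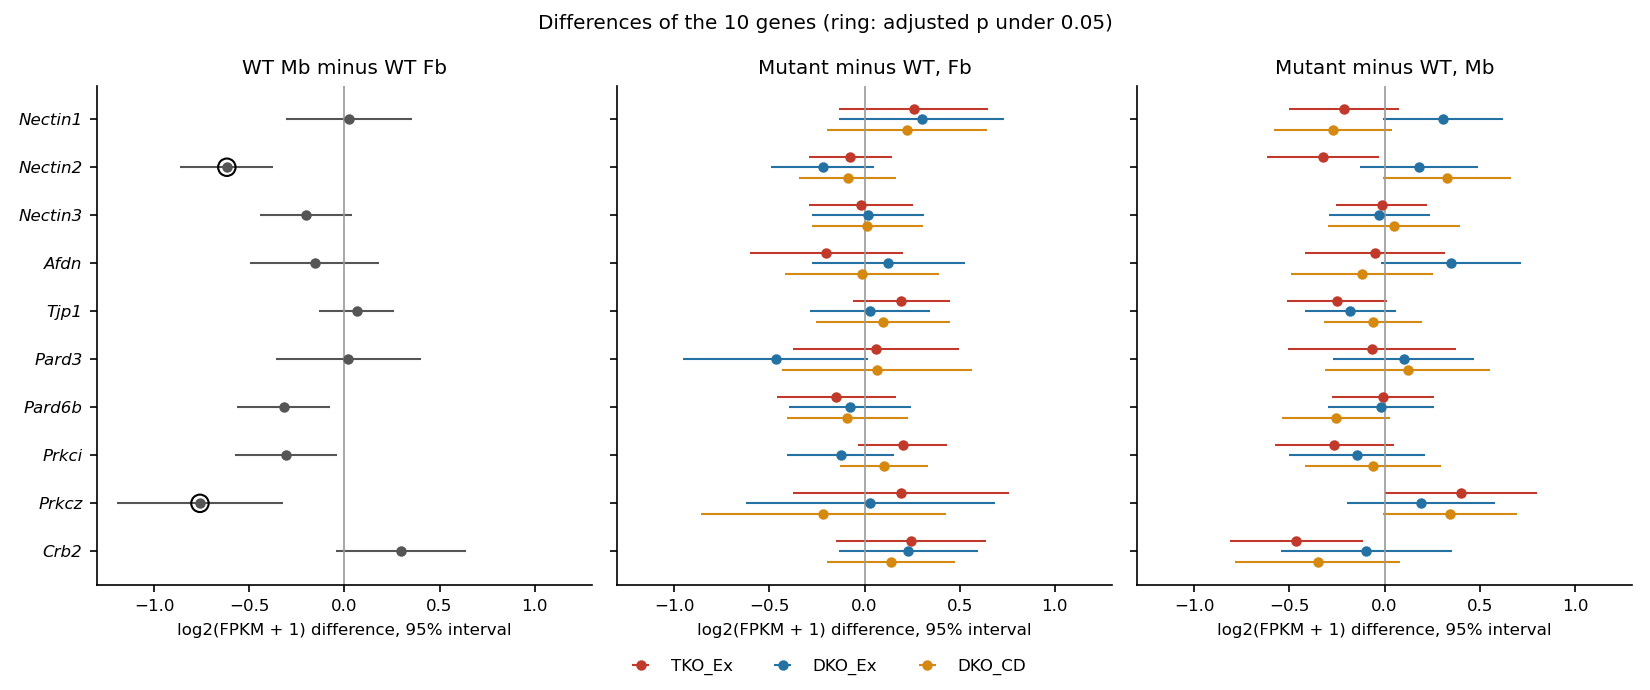
Log2(FPKM + 1) differences of the 10 genes with 95% intervals from limma: WT Mb minus WT Fb (left), and each mutant group minus WT in Fb (middle) and in Mb (right). Rings mark adjusted p under 0.05, which Nectin2 (-0.62) and Prkcz (-0.76) reach in the left panel and no gene reaches in the others.

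In the TKO_Ex Mb, 9 of the 10 genes had a log2 difference below 0, with a median of -0.14 against 0.017 over all genes. The summed FPKM of the 10 genes was 162 to 218 in TKO_Ex Mb (median 186) and 185 to 240 in WT Mb (median 215). Crb2 was at 14.9, 14.4, 16.5 and 14.9 FPKM in the 4 TKO_Ex Mb libraries. In the 6 WT Mb libraries it was at 14.8, 23.4, 26.0, 22.1, 26.7 and 17.5 FPKM. Replicate 2 of TKO_Ex was below every WT library, and the other 3 lay between WT replicates 1 and 6. The means were 15.2 ± 0.91 (SD, n = 4) and 21.8 ± 4.74 FPKM (SD, n = 6), with a log2 difference of -0.46 ± 0.16 (SE), an interval of -0.81 to -0.12 and an adjusted p of 0.481 (limma).

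Nectin2 was at 21.6, 23.4, 27.4 and 27.1 FPKM in TKO_Ex Mb, and 2 of these 4 libraries were below every WT Mb library. Its log2 difference was -0.32, with an interval of -0.62 to -0.03 (limma, adjusted p = 0.562). Prkcz was at 2.88, 5.48, 5.78 and 5.39 FPKM in TKO_Ex Mb. Thus 3 of 4 libraries were above the highest WT Mb value of 4.20 FPKM and the remaining library was below the lowest. The log2 difference was 0.40, with an interval of 0.0031 to 0.80 (limma, adjusted p = 0.591). All 3 of these differences kept their sign without the library labelled TKO_Ex replicate 3 and without each other library. The shallower TKO_Ex Mb libraries and a lower range of summed neuron markers (20.5 to 42.4 FPKM, against 22.5 to 50.1 in WT Mb) stand beside them. Their part was not tested.

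The other genes in TKO_Ex Mb are given by their ranges. Tjp1 was at 23.8 to 33.6 FPKM with 2 of 4 libraries below every WT library, and Prkci was at 14.9 to 16.7 FPKM within the lower part of the WT range. Nectin1 was at 8.20 to 10.3 FPKM, Nectin3 at 19.1 to 23.2, Afdn at 28.7 to 47.4 and Pard6b at 5.84 to 7.74. Pard3 was at 16.4, 15.8, 31.6 and 17.1 FPKM, against 16.1 to 26.3 in WT Mb. The high value, above every WT Mb library, was in the library labelled replicate 3, whose Cdh6 lay within the WT range. Pard3 lies on chromosome 8 with Cdh8 and Cdh11, 27.6 Mb and 24.3 Mb away, and its level is one of the more variable of the set (CV 23.6% over 32 libraries). Groups that do not overlap made up 1.74% of all genes in TKO_Ex Mb and none of the 10. Of the wider junction and polarity list, 0 of 29 genes passed the test, and 1 did not overlap. It was Pard6a, the relative of Pard6b, at 13.9 to 21.1 FPKM in TKO_Ex Mb and 5.91 to 12.02 in WT Mb (log2 difference 0.83, limma, adjusted p = 0.195).

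In the DKO Mb, Prkcz was again above the WT range in several libraries, at 4.31, 4.83 and 2.96 FPKM in DKO_Ex and 4.70, 3.85 and 5.08 FPKM in DKO_CD. In each group 2 of 3 libraries exceeded the highest of the same 6 WT values. Neither difference passed the test (log2 0.19 and 0.34, limma, adjusted p = 0.955 and 0.761). Crb2 was at 17.8, 25.8 and 17.1 FPKM in DKO_Ex and 19.1, 13.4 and 17.5 in DKO_CD, and both groups overlapped with WT.

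Nectin1 and Afdn lay higher in the DKO_Ex Mb than in the DKO_CD Mb. Nectin1 was at 12.4, 14.3 and 15.0 FPKM in DKO_Ex and at 9.27, 8.70 and 8.84 FPKM in DKO_CD, on either side of the WT median of 11.2. Afdn was at 45.8, 63.4 and 49.7 FPKM in DKO_Ex and at 45.7, 33.2 and 35.0 in DKO_CD, where the nearest libraries of the 2 groups differed by less than 0.1 FPKM. Pard6b was at 7.25, 6.86 and 7.001 FPKM in DKO_Ex and at 5.84, 5.75 and 5.85 FPKM in DKO_CD. For these 3 genes the 3 DKO_Ex libraries were above the 3 DKO_CD libraries, a pattern that 12.2% of all genes showed in either direction. This comparison was added after the values had been seen, and 0 of the 10 genes passed its test, which 0.0450% of all genes did. All 3 DKO_Ex Mb libraries, at 3.09 to 3.24 M fragments, were deeper than the DKO_CD Mb libraries, at 2.46 to 2.75 M. The part of depth was not tested. Nectin1 differed by 0.58 ± 0.14 (SE) on the log2 scale, with an interval of 0.26 to 0.90 (limma, adjusted p = 0.703). For Afdn it was 0.47 (adjusted p = 0.760) and for Pard6b 0.24 (adjusted p = 0.828). Grouping the DKO libraries by record exchanges the 2 groups, so the direction of all 3 is then reversed by construction.

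Pard6b in DKO_CD Mb was also the only case among the 60 in which a mutant group did not overlap with WT. All 3 libraries were below the lowest WT Mb value of 6.05 FPKM, with a log2 difference of -0.26 and an interval of -0.54 to 0.03 (limma, adjusted p = 0.802). Grouped by record the difference is -0.02. Its SD of 0.055 FPKM is a CV of 0.95%, whereas counting alone would give 14.04% at the estimated 51 fragments per library. Groups without overlap made up 3.38% of all genes in DKO_CD Mb and 3.0% in DKO_Ex Mb. Nectin2 in DKO_CD Mb was at 33.6, 43.1 and 42.2 FPKM, and 2 of 3 libraries were above every WT Mb library (log2 0.33, limma, adjusted p = 0.761). These are the 2 Mb libraries with the highest surface ectoderm sums. Mesenchyme and neural crest sums were 121.6, 163.2 and 105.4 FPKM in DKO_CD Mb replicates 1 to 3, against 66.4 to 110.9 in WT Mb. The part of these cell types was not tested. Nectin2 in DKO_Ex Mb was at 34.8 to 36.9 FPKM. Nectin3 was at 19.9 to 22.3 FPKM in DKO_Ex Mb and 17.2 to 26.7 in DKO_CD Mb, and Tjp1 was at 27.1 to 33.0 and 29.3 to 37.7. Prkci was at 16.6 to 18.0 and 18.0 to 18.5 FPKM, and Pard3 at 18.2 to 25.6 and 16.7 to 29.6, all overlapping with WT.

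In the Fb, every gene overlapped with WT in each mutant group. Shares of all genes without overlap were 2.23% in TKO_Ex, 3.70% in DKO_Ex and 4.22% in DKO_CD. The median log2 difference of the 10 genes was 0.13, 0.024 and 0.039 in these groups, against 0.022, -0.015 and 0.042 over all genes. The lowest was Pard3 in DKO_Ex Fb, at 15.8, 14.9 and 12.3 FPKM against 13.5 to 29.0 in WT Fb, with an interval of -0.96 to 0.02. Grouped by record its log2 difference of -0.47 becomes 0.06. Nectin1 was at 11.1 to 15.9 FPKM in TKO_Ex, 12.4 to 15.6 in DKO_Ex and 12.2 to 13.1 in DKO_CD, above the WT median of 10.5 FPKM in all 10 mutant libraries and below the highest WT value of 16.2. Nectin2 was at 43.2 to 51.7, 35.1 to 46.5 and 40.3 to 51.4 FPKM in the same order of groups. Nectin3 was at 22.2 to 28.0, 24.3 to 26.6 and 24.9 to 26.5 FPKM. Both lay largely within their WT ranges.

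Afdn in the Fb was at 29.7 to 46.8 FPKM in TKO_Ex, 45.6 to 55.2 in DKO_Ex and 40.3 to 49.1 in DKO_CD. Tjp1 was at 30.9 to 42.8, 27.3 to 41.3 and 28.6 to 46.7 FPKM. Pard6b was at 6.33 to 9.38, 7.83 to 9.72 and 7.71 to 9.31 FPKM, and Prkci at 24.5 to 32.5, 18.3 to 25.5 and 24.2 to 26.6. Prkcz was at 5.30 to 9.44, 4.94 to 9.25 and 3.90 to 6.999 FPKM, with CVs of 25.8, 33.5 and 28.4% against 40.2% in WT. Crb2 was at 23.4, 23.9, 22.8 and 13.8 FPKM in TKO_Ex, where 3 of 4 libraries exceeded the highest WT Fb value of 21.7 FPKM.

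Whether a mutant effect differed between the tissues was tested as an interaction. Of the 10 genes, 0 passed in TKO_Ex, DKO_Ex or DKO_CD, and 0.0149%, 0.00% and 0.00746% of all genes did. An unadjusted p under 0.05 was reached by 4, 1 and 2 of the 10, against 873 of 13423, 518 of 13349 and 647 of 13397 over all genes. The 4 in TKO_Ex were Crb2, Prkci, Nectin1 and Tjp1, all with a lower effect in the Mb. Crb2 was above WT in Fb (log2 0.24) and below it in Mb (-0.46), an Mb minus Fb difference of -0.71 ± 0.25 (SE) with an interval of -1.22 to -0.19 (limma, adjusted p = 0.713). For Nectin1 the difference was -0.47 (adjusted p = 0.756), for Prkci -0.46 and for Tjp1 -0.45 (adjusted p = 0.734 for both). In DKO_Ex and DKO_CD it was Nectin2, with differences of 0.40 and 0.42 (adjusted p = 0.9996 and 0.990), joined in DKO_CD by Nectin1 at -0.49 (adjusted p = 0.990). The interaction intervals are wide, reaching -1.22 and 1.26 over the 30 values.

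Across all 32 libraries the CVs of the set lay around those of other genes of similar level. They ran from 13.2% for Nectin3 to 39.5% for Prkcz, with a median of 20.4%. The median was 20.9% over the 7483 genes with a mean of 5 to 60 FPKM. Estimated fragments behind a value ran from 24 to 125 for Prkcz and 45 to 105 for Pard6b, up to 462 to 1515 for Afdn. Within tissues, the 2 genes of the set that varied most alike were Nectin1 and Crb2, with Pearson's r of 0.53 over 16 Fb and 0.65 over 16 Mb libraries. Nectin3 and Crb2 followed, with 0.53 and 0.43. These points share library and depth, and the values are a description.

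The gene most alike to a member was sought among the 8695 genes whose mean reached 5 FPKM in both tissues, by the smaller of its 2 Pearson's r over 16 libraries. For Nectin2 it was Ptk7, a planar polarity receptor of the neural plate (r = 0.72 in Fb and 0.76 in Mb). For Nectin1 it was Chd7, a chromatin remodeller (0.70 and 0.71), for Afdn it was Dlg4, a scaffold of synapses and junctions (0.65 and 0.65), and for Crb2 it was Sbno1 (0.68 and 0.63). For Nectin3 it was Atxn7l3, for Tjp1 Stox2, for Pard3 Rnf26, for Pard6b Xpot and for Prkcz Kdelr1, with r between 0.65 and 0.74. Each is the highest of 8695 values, so a high r is given by the search itself.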

How the data were processed

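RNA of E9.5 Fb and Mb tissue was extracted, made into directional libraries and sequenced. Per the methods and processing notes, the authors used TopHat2 for alignment to GRCm38 (mm10), and the deposited values are FPKM that Cufflinks gave for each gene. The authors' HTSeq counts and DESeq2 results were not used here, and tool versions are not given in the sources used here. FPKM are already scaled to gene length and library size. The 65 repeated identifiers were summed. Names and positions are from GENCODE M21 (48218 of 48576 identifiers matched). Depth was worked out per library as the number of fragments that places the small FPKM of 507 long genes (4000 bp or more, with a single transcript) on whole fragments, and 84.9 to 93.4% of those values then fell within 0.08 of one.

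Groups follow the sample titles and, for DKO files, the headings. Differences were tested with limma 3.58.1 (R 4.3.3; tables made with Python 3.11.15) on log2(FPKM + 1), by lmFit and then eBayes with its trend option. Each fit held the libraries of the 2 groups compared (of both tissues for interactions) and the genes whose mean in them reached 1 FPKM. Adjusted p is Benjamini-Hochberg over all genes tested. The fit was also run on simulated data with the same dispersion for every gene, which does not show how many real differences it would find here. Fold changes on this scale understate those of low genes. FPKM give no interval for counting error, so fragments and counting CVs are estimates from depth and longest transcript.

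The members and lists were chosen with earlier results of these data known. All members were described, genes of the wider lists were named if called or without overlap, and the most alike gene of a member was named, except for items that are not reported here. Of 52 listed markers, 50 were found. Endothelial markers (0 of 6 called) and primitive red cell markers (0 of 5) did not pass between WT tissues, 5 of 7 midbrain and 2 of 6 neuroepithelium markers were higher in the Mb, and 5 of 7 forebrain markers were lower. Alternatives were pseudocounts of 0.1 and 5, no filter, at least 1 FPKM in every library, median-of-ratios scaling, the replicate number as a block, no mean-variance trend, all 4 groups in a single fit, grouping by record and leaving out each library. The comparison of DKO_Ex with DKO_CD was added after the data were seen.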

Additional observations from a re-analysis of the deposited data

Results flagged for a closer look

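In 40 groups of 4 or 6 libraries of the 10 genes, the highest or lowest library stood apart from the others in 6, by Dixon's ratio at the 95% level, where chance gives about 1 in 20. Nectin2 in WT Fb replicate 4 was at 38.7 FPKM, with the next library at 48.0. Pard3 in TKO_Ex Fb replicate 4 was at 16.8 FPKM against 22.1 for the next, and Crb2 in the same library was at 13.8 against 22.8. Pard3 in TKO_Ex Mb replicate 3 was at 31.6 FPKM against 17.1. Pard6b in TKO_Ex Mb replicate 4 was at 5.84 FPKM against 7.46, and Prkcz in TKO_Ex Mb replicate 1 at 2.88 against 5.39. Of these 6, 2 were in the library TKO_Ex Fb replicate 4, which also had the highest surface ectoderm marker sum of the series (255 FPKM). No member had a called difference between its effects in the Mb and the Fb.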

How the results depend on the processing

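Under every alternative run, 0 of the 10 genes passed the test in the 6 comparisons with WT, the 3 interactions and the added comparison of the DKO groups. In WT Mb against WT Fb the count of 2 became 1 with no filter on low values, 1 with the replicate block, and 1 to 2 without each library. Nectin2 was called in all 19 of these alternatives (log2 differences -0.69 to -0.56, adjusted p 0.00110 to 0.0113), and Prkcz was the call that was lost (adjusted p = 0.0611 with no filter and 0.0746 with the replicate block, range over all alternatives 0.0124 to 0.0771). With no filter more genes are tested. The cause of the other losses was not tested. Of 379 values of 18 single differences under alternatives, 366 kept direction and side, 9 lost the call and 4 reversed. All 4 reversals came from grouping the DKO libraries by record. These were Nectin1 (-0.58), Afdn (-0.47) and Pard6b (-0.24) between the DKO groups, and the DKO_CD interaction of Nectin1 (0.0063). Since that grouping exchanges the DKO groups, the reversals between them were fixed in advance. It also adds no new fit to the counts above. Replicate numbers are not stated to mark the same embryo. Same-numbered Fb and Mb libraries of WT had correlated deviations from their group means of 0.060 to 0.13, with 5 of 6 best paired with their own number, those of DKO_Ex 0.10 to 0.20, and those of mutant and WT libraries of a tissue ran from -0.11 to 0.066. A correlation over 0.1 in every pair, set as the condition for a pairing, was met in 3 of 6 WT pairs and in 3 of 3 DKO_Ex pairs between tissues. It was met in 3 of 4 TKO_Ex pairs and 1 of 3 DKO_CD pairs. Best matches with the own number were 3 of 4 in TKO_Ex, 3 of 3 in DKO_Ex and 1 of 3 in DKO_CD. The numbers were therefore not taken as a pairing of the WT tissues, although the best matches hint at one, and the block changed no other count. Prkcz and Pard6b rest on an estimated 37 to 85 fragments per WT library, where counting alone gives CVs of 10.9 to 16.5% and 11.1 to 40.2% were observed.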
